A study of Mus musculus with 12 samples.

Results

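Plasma cells are the antibody-secreting cells that activated B cells can become, and 8 genes known for that fate were followed here in sorted mouse germinal centre (GC) B cells: Prdm1, Xbp1, Ell2, Jchain, Mzb1, Fkbp11, Tent5c and Sdc1. The genes were chosen by name, and each was read from the probe set annotated with its symbol alone. Each of the 8 had 1 such probe set, among 19938 genes that had one. Donor SwHEL B cells with the CD45.1 marker, whose receptor binds hen egg lysozyme, had been placed in C57BL/6J hosts (CD45.2) immunized with the lysozyme mutant HEL3x on sheep red blood cells. On day 10, donor GC cells (IgG1+, CD38 low) from spleen, labelled female, were sorted into 4 groups of 3 arrays each. LZ_high and LZ_low are light zone cells (CD86 high, CXCR4 low) of high and of low affinity, and DZ_high and DZ_low are dark zone cells (CXCR4 high, CD86 low) of high and of low affinity. All 4 groups share the donor receptor, the host, the antigen and the day. Neither the gate for affinity nor the number of animals behind the arrays of a group is stated in the labels, so p-values may reflect technical spread alone. The gate given in the labels names no plasma cell marker. Each group holds 1 array with each of 3 label suffixes, which were read as shared days. They define matched sets 1 to 3, which also serve as replicate numbers.

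Blimp-1, the product of Prdm1, represses the B cell programme, and XBP1 is a transcription factor that expands the secretory apparatus. Blimp-1 and XBP1 together turn an activated B cell into a cell built for secretion. ELL2 is an elongation factor that favours the secreted form of the immunoglobulin heavy chain mRNA. The joining chain encoded by Jchain links IgM and IgA into polymers, MZB1 is an endoplasmic reticulum (ER) protein that helps to assemble antibody, FKBP11 is a prolyl isomerase of the ER, and TENT5C is a poly(A) polymerase that stabilises immunoglobulin mRNA. Syndecan-1 (CD138), encoded by Sdc1, is the surface marker by which plasma cells are usually sorted. GC cells leave the cycle of division in the dark zone and selection in the light zone as memory B cells or as precursors of plasma cells.

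The arrays had medians between 5.57 and 5.72 on the log2 scale of the deposited values, and correlations between arrays of 0.951 to 0.993. On the first principal component of the tested genes (40.1% of the variance), the 4 arrays of matched set 3 lay apart, with scores of 12.5 to 52.9 against -26.4 to -6.71 for the other arrays. All 10 B cell and GC markers with a probe set, Cd79a, Pax5 and Bcl6 among them, lay above the array median on all 12 arrays. Of markers of cells that the sort should remove, 4 of 10 for macrophages, 4 of 7 for T cells, 6 of 9 for granulocytes, 3 of 8 for stroma and 1 of 2 for red cells passed the filter on dim genes. Among all genes with a probe set of their own, 11206 of 19938 passed it. The mean level of the granulocyte markers ranged over 5.19 to 6.81 in LZ_high, 5.38 to 6.87 in LZ_low, 5.29 to 6.87 in DZ_high and 5.42 to 6.30 in DZ_low. The sort gene Cd86 rose in LZ cells by 1.13 ± 0.11 on the log2 scale (standard error, SE; limma adjusted p = 0.00138). The difference of Cxcr4 was -0.63 ± 0.18 (adjusted p = 0.271, and 0.0449 with the matched set as a block).

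Genes entered the test if they reached the median of all probe sets on 3 or more of the 12 arrays, as 7 of the 8 genes did, among 11206 genes in all. Xbp1, Ell2, Jchain, Mzb1 and Tent5c lay above the median on all 12 arrays. Fkbp11 and Sdc1 reached it on 4 arrays each, all of them from the DZ, so the DZ arrays alone admitted these genes and some difference between zones was built into their passing. For Fkbp11 these were the 3 DZ_high arrays, which alone met the filter, and 1 DZ_low array, so a higher level in DZ_high than in the other groups was also in part fixed by its passing. Prdm1 reached it on 0 of 12 arrays and lay 0.67 to 1.45 below it, so its values are described and not read as expression.

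**Figure D1:**
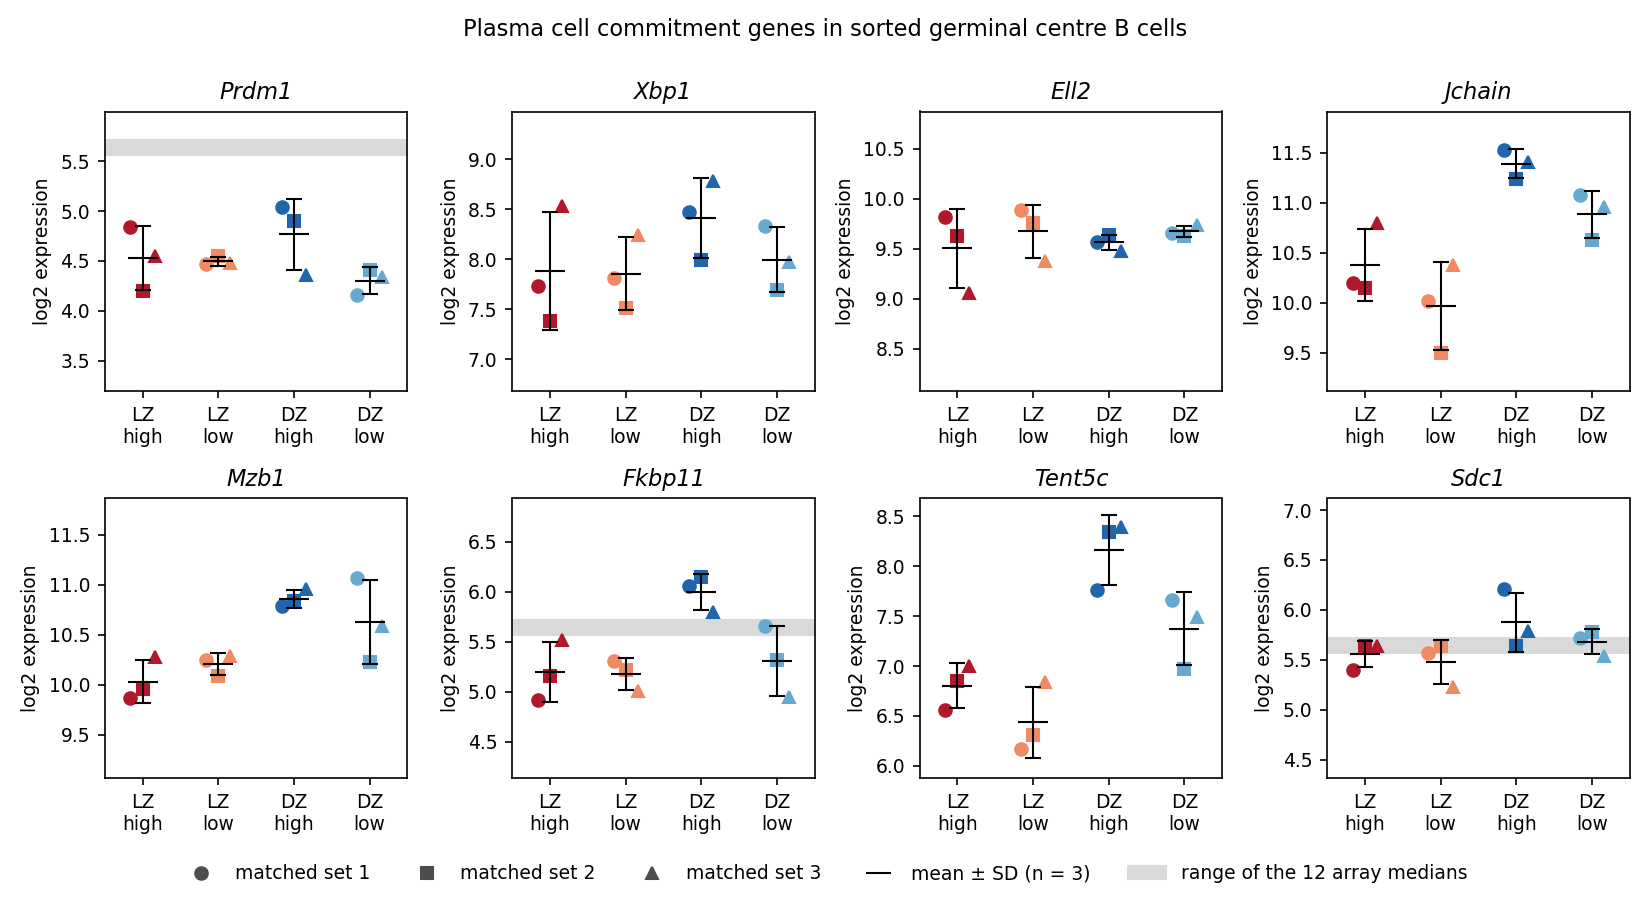
Log2 expression of the 8 genes on each array by group (points, shaped by matched set), with the group mean and SD (n = 3). Each panel spans the same log2 range, and the grey band is the range of the 12 array medians, which Prdm1 never reached. Jchain and Tent5c were highest in the 3 DZ_high arrays and low in the 6 LZ arrays, while the group means of Ell2 lay within 0.17 of each other.

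The first comparison asks how the genes differ between the zones. Tent5c and Jchain fell in LZ cells, by 1.15 and 0.97 on the log2 scale, which is 2.22-fold and 1.95-fold lower. Mzb1 and Fkbp11 had lower values in LZ cells that did not pass the test, and Xbp1 and Sdc1 had smaller differences in that direction. DZ arrays alone had admitted Fkbp11 and Sdc1 to the test. Ell2 and Prdm1 had differences close to 0. In all, 2 of the 7 tested genes were called, both lower in LZ cells, where 0.187% of all tested genes were called lower and 0.419% in either direction (1.2% with the matched set as a block, which left the same 2 members called). All 8 differences were below 0, with a median of -0.40. Over all 19938 genes without the filter the median was -0.01 and 53.5% of the differences were below 0. No member had all 6 LZ arrays below all 6 DZ arrays, as 0.455% of tested genes did, while Tent5c, Jchain and Mzb1 were lower in LZ in each of 6 matched pairs, as 3.74% were. In sorted pools, a smaller share of cells that carry a transcript and less of it per cell cannot be told apart.

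Prdm1 (probe set 10368970) read 4.84, 4.20 and 4.55 in LZ_high, 4.47, 4.55 and 4.48 in LZ_low, 5.04, 4.90 and 4.36 in DZ_high and 4.16, 4.41 and 4.34 in DZ_low, in the order of matched sets 1 to 3. The groups overlapped except that all 3 LZ_low arrays lay above the 3 DZ_low arrays, and 2 of the DZ_high arrays gave the highest readings. With no filter, the zone difference was -0.02 ± 0.14 (95% interval -0.32 to 0.28).

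Xbp1 (probe set 10374035) read 7.73, 7.38 and 8.53 in LZ_high, 7.81, 7.51 and 8.24 in LZ_low, 8.47, 7.99 and 8.78 in DZ_high and 8.33, 7.69 and 7.97 in DZ_low. In 3 of the groups the array of set 3 was the highest and in DZ_low it was the middle one, so the groups overlapped widely. The zone difference was -0.34 ± 0.23 (interval -0.83 to 0.16, adjusted p = 0.96), lower in 5 of 6 matched pairs. The exception was the low-affinity pair of set 3, at 0.27.

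Ell2 (probe set 10406254) read 9.82, 9.63 and 9.06 in LZ_high, 9.89, 9.76 and 9.38 in LZ_low, 9.57, 9.64 and 9.48 in DZ_high and 9.66, 9.62 and 9.74 in DZ_low. The spread was wider in LZ, with an SD of 0.316 over 6 arrays, against 0.0856 over the 6 DZ arrays. Both LZ arrays of set 3 lay below all other arrays. The zone difference of -0.03 ± 0.14 (interval -0.34 to 0.29, adjusted p = 0.999) was 0.25 and 0.23 at high and low affinity in set 1, and -0.42 and -0.36 in set 3. It was 0.15 without set 3.

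Jchain (probe set 10531126) read 10.20, 10.15 and 10.80 in LZ_high, 10.02, 9.50 and 10.38 in LZ_low, 11.53, 11.24 and 11.41 in DZ_high and 11.07, 10.62 and 10.96 in DZ_low. The DZ_high arrays stood above the other 9, and DZ_low overlapped LZ_high only through set 3 of LZ_high and set 2 of DZ_low. LZ cells averaged 10.17 ± 0.43 and DZ cells 11.14 ± 0.33 (SD, n = 6 each), a difference of -0.97 ± 0.17 (SE; interval -1.35 to -0.58, adjusted p = 0.0427). It was lower in 6 of 6 matched pairs, at -1.33 to -0.58. The 2 pairs of set 3 gave the smallest differences, -0.61 at high and -0.58 at low affinity. The call was lost with no filter (adjusted p = 0.053) and with centring on array medians (0.0816), within a range of 0.000761 to 0.0816 over 11 alternative fits. It passed with the matched set as a block (0.00753) and without set 3 (-1.15, 0.015).

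Tent5c (probe set 10500610) read 6.56, 6.85 and 7.01 in LZ_high, 6.17, 6.31 and 6.84 in LZ_low, 7.76, 8.34 and 8.39 in DZ_high and 7.67, 6.97 and 7.49 in DZ_low. Again the 3 DZ_high arrays stood above the other 9, and the zones overlapped only where LZ_high of set 3 exceeded DZ_low of set 2. The means were 6.62 ± 0.33 in LZ and 7.77 ± 0.54 in DZ (SD, n = 6 each), a difference of -1.15 ± 0.18 (SE; interval -1.54 to -0.75, adjusted p = 0.0234). All 6 matched pairs were lower, at -1.50 to -0.65. The call held in each of 11 alternative fits (adjusted p = 0.000365 to 0.0488), among them the fit with the block (0.00784) and the fit without set 3 (-1.21, 0.022).

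Neither call held in every fit that left out 1 array. Like the reported fit, these fits did not use the matched set as a block. No gene of the 8 was called without replicate 1 or 2 of LZ_high, replicate 1 or 2 of LZ_low, replicate 2 or 3 of DZ_high, or replicate 1 or 3 of DZ_low. Tent5c alone was called without DZ_high replicate 1 or DZ_low replicate 2, and both genes were called without LZ_high replicate 3 or LZ_low replicate 3. Their differences moved little in these 12 fits, over -1.25 to -1.07 for Tent5c and -1.07 to -0.85 for Jchain, with adjusted p up to 0.0758 and 0.126.

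Because Jchain and Tent5c were the 2 called genes, the 250 bases before their annotated starts are shown, from RefSeq on GRCm38.p6, where 7 of the 8 genes had an entry and Fkbp11 had 2 starts. The Jchain stretch is chr5:88527898-88528147 on the minus strand and the Tent5c stretch is chr3:100489193-100489442 on the minus strand. Capitals mark ACGTG, the core of sites bound by XBP1, and CCAAT, a common promoter element, on either strand.
Jchain: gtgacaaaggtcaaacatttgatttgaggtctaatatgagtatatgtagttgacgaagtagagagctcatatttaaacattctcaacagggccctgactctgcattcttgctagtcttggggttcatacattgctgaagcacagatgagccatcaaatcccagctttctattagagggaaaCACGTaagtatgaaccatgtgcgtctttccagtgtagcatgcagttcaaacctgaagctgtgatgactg
Tent5c: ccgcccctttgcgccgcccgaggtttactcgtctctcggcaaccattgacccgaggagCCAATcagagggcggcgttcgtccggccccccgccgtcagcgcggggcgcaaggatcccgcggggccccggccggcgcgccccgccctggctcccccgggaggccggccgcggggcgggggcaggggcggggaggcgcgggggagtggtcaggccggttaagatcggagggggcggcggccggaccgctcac
The stretches differ in composition, with 42.0% G and C for Jchain and 78.8% for Tent5c. Jchain has 1 match to ACGTG, on the opposite strand and beginning 69 bases before the start, and none to CCAAT. Tent5c has 1 match to CCAAT, beginning 192 bases before the start, and none to ACGTG. The letters ACGTG occurred in 1 of the 8 stretches of the 7 genes and in 16.6% of 32851 promoter stretches of the same length, and CCAAT in 5 of the 8 and in 33.8%. The ER stress element, which joins CCAAT to CCACG across a fixed spacer, occurred in 0 of the 8 and in 0.113% of all. These are letter matches in a short window and not measured sites.

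Mzb1 (probe set 10458278) read 9.86, 9.95 and 10.27 in LZ_high, 10.25, 10.08 and 10.29 in LZ_low, 10.79, 10.83 and 10.95 in DZ_high and 11.06, 10.23 and 10.59 in DZ_low. The zones overlapped only through set 2 of DZ_low, which lay among the LZ arrays. The zone difference of -0.62 ± 0.14 (interval -0.94 to -0.31) was lower in 6 of 6 matched pairs and did not pass (adjusted p = 0.127, and 0.00391 to 0.254 over 11 alternative fits). It passed only with array weights, at the lower end of that range.

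Fkbp11 (probe set 10432243) read 4.92, 5.16 and 5.52 in LZ_high, 5.31, 5.22 and 5.00 in LZ_low, 6.05, 6.15 and 5.80 in DZ_high and 5.66, 5.31 and 4.95 in DZ_low. The DZ_high arrays stood above the other 9, while DZ_low spread across the LZ values. The zone difference was -0.47 ± 0.15 (interval -0.80 to -0.13, adjusted p = 0.374, and 0.0152 to 0.46 over 10 alternative fits), lower in 5 of 6 matched pairs. DZ arrays alone, chiefly those of DZ_high, had admitted Fkbp11 to the test. This difference and the place of DZ_high were therefore in part fixed by its passing.

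Sdc1 (probe set 10394471) read 5.40, 5.63 and 5.63 in LZ_high, 5.57, 5.63 and 5.22 in LZ_low, 6.21, 5.63 and 5.79 in DZ_high and 5.72, 5.78 and 5.54 in DZ_low. The DZ_high array of set 1 was the highest and the LZ_low array of set 3 the lowest, and the groups overlapped. The value 5.6339 occurred on 4 arrays. In these files 33.9% of probe sets held a value found on 2 or more arrays. The zone difference was -0.26 ± 0.13 (interval -0.54 to 0.02, adjusted p = 0.773). Sdc1, too, had been admitted to the test by DZ arrays alone.

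**Figure D2:**
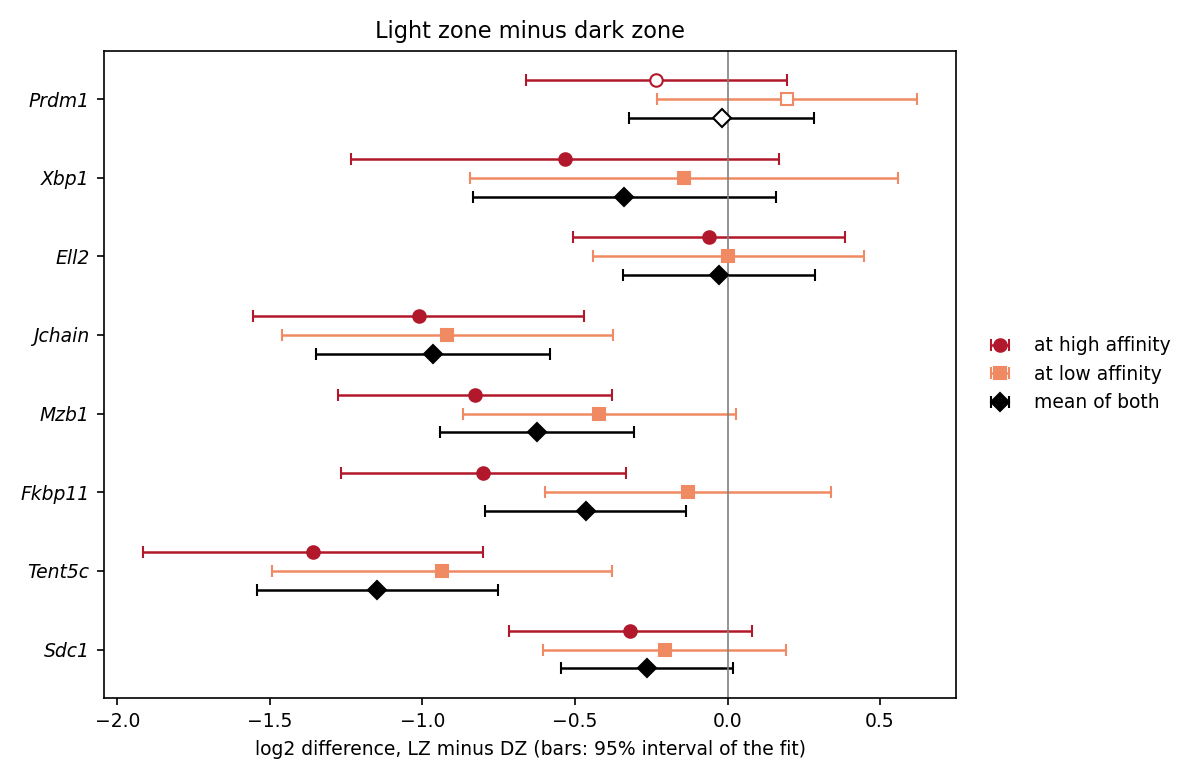
Log2 difference LZ minus DZ of the 8 genes at high affinity, at low affinity and as the mean of both, with the 95% interval of the limma fit; open symbols (Prdm1) come from the fit with no filter. The intervals of Jchain and Tent5c lay below 0 in all 3 comparisons, while those of Mzb1 and Fkbp11 did so at high affinity and in the mean. DZ arrays alone had admitted Fkbp11 to the test, so its place was in part fixed.

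The zone difference was then taken at each affinity. At high affinity, LZ_high cells had lower values than DZ_high cells for Tent5c (-1.36 ± 0.25), Jchain (-1.01 ± 0.25), Mzb1 (-0.83 ± 0.20) and Fkbp11 (-0.80 ± 0.21), and the 3 LZ_high arrays lay below the 3 DZ_high arrays for each of these 4 of the 7 tested genes, among them Fkbp11, which the DZ_high arrays had admitted to the test. Such a separation was found for 3.66% of all tested genes. None passed over all genes by limma, where 0.0357% of tested genes did (adjusted p = 0.155 for Tent5c, 0.413 for Jchain, 0.434 for Mzb1 and 0.553 for Fkbp11), and 4 of the 7 had an unadjusted p under 0.05 against 4.53% of all genes. The 4 genes passed with array weights (0.00211 to 0.0102), and 0 of 7 with the block, where 0.0803% of all genes did. Granulocyte markers had lower values in LZ_high too, in 6 of 6 tested members, with a median of -0.43, and their part in these differences was not tested. Of these 6, 0 had an unadjusted p under 0.05 by limma. Markers of T cells (4 of 4), stroma (3 of 3) and red cells (1 of 1) were also lower, and those of macrophages in 2 of 4. With array weights 146 of all tested genes were called in this comparison, against 4 without.

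At low affinity the zone difference was -0.94 ± 0.25 for Tent5c and -0.92 ± 0.25 for Jchain, LZ_low arrays lying below DZ_low arrays for both. This separation was found for 3.86% of tested genes. For Mzb1 it was -0.42 ± 0.20, for Fkbp11 -0.13 ± 0.21, for Sdc1 -0.21 ± 0.18, for Xbp1 -0.14 ± 0.32 and for Ell2 0.00 ± 0.20. Of the 7 tested genes 0 were called by limma and 0 with the block, where 0.0357% and 0.223% of all genes were. An unadjusted p under 0.05 was found for 2 of 7, against 4.69% of all genes, and Tent5c and Jchain passed with array weights (adjusted p = 0.0371 and 0.0387). Granulocyte markers had the opposite sign at low affinity, with 5 of 6 higher in LZ_low, a median of 0.54 and 0 at an unadjusted p under 0.05.

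The second comparison asks whether the genes differ between cells of high and of low affinity. In the DZ, high-affinity cells had higher values of Tent5c, Fkbp11, Jchain and Xbp1, by 0.42 to 0.79 on the log2 scale, but no gene passed over all genes. The readings of Prdm1 were also higher there, by 0.46, but lay below the array medians and are not read as expression. In the LZ the differences of Tent5c, Fkbp11, Jchain and Xbp1 were smaller, and those of the 8 genes were of both signs. The DZ_high group had the highest mean of the 4 groups for 6 of the 7 tested genes, the exception being Ell2, and for 26.5% of all tested genes. Fkbp11 and Sdc1 are among the 6, and their passing through DZ arrays alone in part fixed this place. All 3 DZ_high arrays lay above the other 9 for Jchain and Tent5c, a pattern found for 0.366% of tested genes. They did so for Fkbp11 as well, which is given as a description only, since these arrays admitted the gene to the test.

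Within the DZ, Tent5c was 0.79 ± 0.25 higher at high affinity (interval 0.23 to 1.35), with matched set differences of 0.09, 1.38 and 0.89. Fkbp11 was 0.69 ± 0.21 higher (interval 0.23 to 1.16), with differences of 0.40, 0.83 and 0.85. Jchain was 0.51 ± 0.25 higher (interval -0.03 to 1.05), with differences of 0.46, 0.61 and 0.45, the most even of these 3 genes. Each of the 3 was higher in every matched set, as were Xbp1 (0.14, 0.30 and 0.81) and 9.31% of tested genes. DZ_high and DZ_low arrays did not overlap for Tent5c, Fkbp11 and Jchain, where Fkbp11 had passed the filter through DZ_high. Such a separation in the same direction was found for 3.29% of tested genes. Xbp1 differed by 0.42 ± 0.32, Mzb1 by 0.23 ± 0.20, Sdc1 by 0.20 ± 0.18 and Ell2 by -0.11 ± 0.20. Prdm1, below the array medians throughout, differed by 0.46 ± 0.19 with no filter and was also higher in every matched set.

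The adjusted p was 1 for each of the 7 tested genes in this contrast. Limma called 0 of 7 and 0% of all tested genes, also with the block, and an unadjusted p under 0.05 was found for Tent5c and Fkbp11 (0.00987 and 0.00748), against 2.2% of all genes. The p of Fkbp11 is that of a gene admitted through its DZ_high values and supports nothing by itself. Granulocyte markers had higher values in DZ_high than in DZ_low in 6 of 6 tested members, with a median of 0.37 and 0 at an unadjusted p under 0.05. The mean level of the 10 B cell and GC markers was 10.21 to 10.36 in DZ_high, against 10.44 to 10.52 in DZ_low, without overlap. The sort gene Cd86 was lower in DZ_high than in DZ_low by a log2 difference of -0.81 ± 0.15 (unadjusted p = 0.000217, adjusted p = 1), and Cxcr4 differed by 0.04 ± 0.26. The part of the marker lists and of Cd86 in the differences was not tested.

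Within the LZ, Jchain was 0.41 ± 0.25 and Tent5c 0.37 ± 0.25 higher at high affinity, each higher in 3 of 3 matched sets, as 15.1% of tested genes were. Mzb1 (-0.18 ± 0.20) and Ell2 (-0.17 ± 0.20) were lower in 3 of 3, as 16.7% were. Xbp1 (0.02 ± 0.32), Fkbp11 (0.02 ± 0.21), Sdc1 (0.08 ± 0.18) and Prdm1 (0.03 ± 0.19, no filter) differed by less than their SE. LZ_high and LZ_low arrays overlapped for all 8 genes, while 4.49% of tested genes lay lower and 4.32% higher in LZ_high without overlap. Limma called 0 of the 7, with or without the block, 0 had an unadjusted p under 0.05 (4.16% of all genes), and 0% of tested genes were called.

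Averaged over the zones, the affinity difference was 0.58 ± 0.18 for Tent5c, 0.46 ± 0.17 for Jchain and 0.36 ± 0.15 for Fkbp11. Tent5c and Jchain were higher in 6 of 6 matched pairs. The adjusted p was 0.852, 0.93 and 0.944, so 0 of 7 passed by limma, with or without the block, where 0% of all tested genes did and 5.25% had an unadjusted p under 0.05. The value of Fkbp11 was in part fixed, since the DZ_high arrays had admitted this gene to the test.

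**Figure D3:**
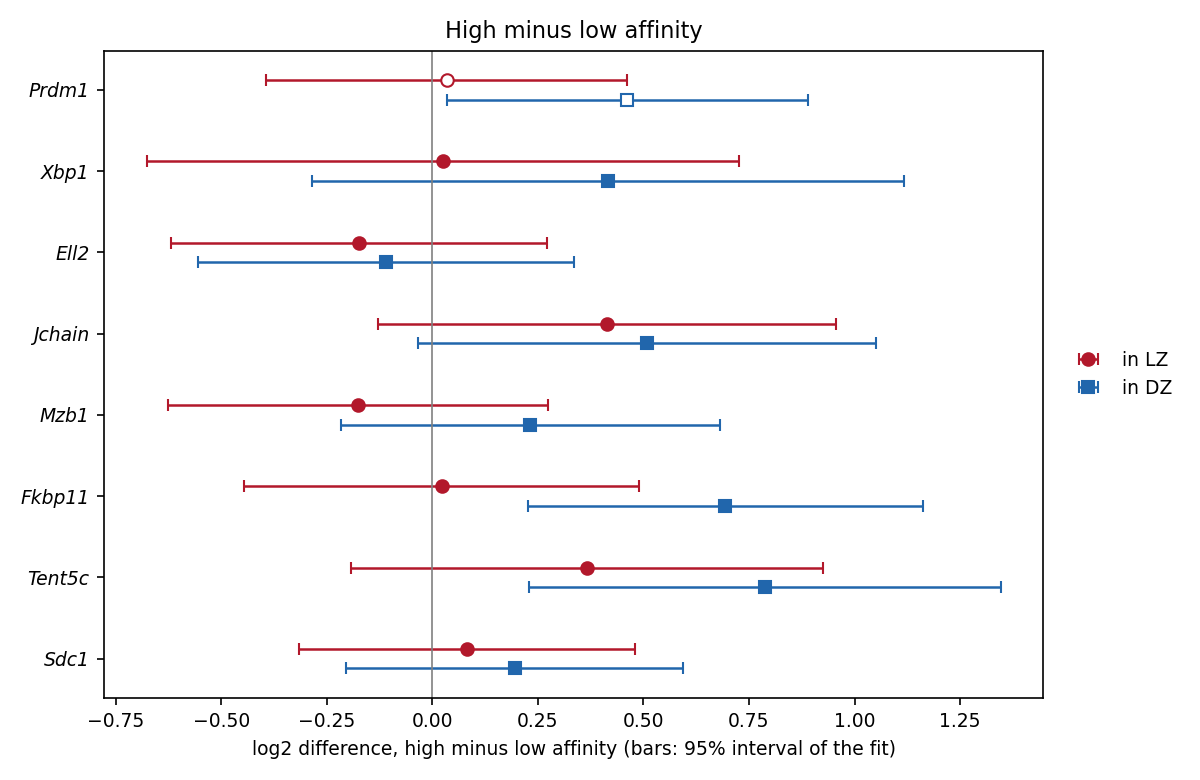
Log2 difference between high and low affinity (high minus low) of the 8 genes within LZ and within DZ, with the 95% interval of the limma fit; open symbols (Prdm1) come from the fit with no filter. In DZ the intervals of Tent5c, Fkbp11 and Prdm1 lay above 0, and in LZ all 8 intervals held 0. The values of Prdm1 are not read as expression, and the DZ_high arrays had admitted Fkbp11 to the test.

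The interaction, taken as the high minus low affinity value of LZ less the same value of DZ, was below 0 for all 8 genes, from -0.67 ± 0.30 for Fkbp11 to -0.06 ± 0.29 for Ell2. It was -0.42 ± 0.36 for Tent5c, -0.41 ± 0.29 for Mzb1, -0.39 ± 0.45 for Xbp1, -0.11 ± 0.26 for Sdc1 and -0.09 ± 0.35 for Jchain, and -0.43 ± 0.27 for Prdm1 with no filter. The median of the 8 was -0.40, against -0.00203 over all genes without the filter. Only the interval of Fkbp11 left out 0 (-1.33 to -0.01, unadjusted p = 0.0474), a gene whose passing through DZ_high favours a negative value. An unadjusted p under 0.05 was found for 1.58% of all tested genes, and every adjusted p was 1. Limma called 0 of 7 and 0% of all tested genes, with or without the block, so no affinity difference was shown to depend on the zone.

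The order of the group means was DZ_high, DZ_low, LZ_high and LZ_low for Jchain, Tent5c, Xbp1, Fkbp11 and Sdc1. How many of all tested genes share this order was not counted. For Fkbp11 and Sdc1 it was in part fixed by their passing through DZ arrays alone. The last step was 0.02 for both Xbp1 and Fkbp11 and changed sign in some alternative fits. For Jchain the first step was 0.51 and free of overlap, while DZ_low with LZ_high (0.50 apart) and LZ_high with LZ_low (0.41 apart) overlapped. Tent5c had the same pattern, with steps of 0.79, 0.57 and 0.37 of which only the first was free of overlap. DZ_high lay above DZ_low without overlap for 3.29% of tested genes. For Fkbp11 the first step was 0.69 and the others 0.11 and 0.02, which did not exceed the spread. All neighbouring groups overlapped for Xbp1 and Sdc1. Mzb1 had the order DZ_high, DZ_low, LZ_low and LZ_high with overlap at each step, and Ell2 had LZ_low, DZ_low, DZ_high and LZ_high within 0.17 of each other.

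Among the 28 pairs of the 8 genes, Jchain and Tent5c had the highest Pearson correlation over the 12 arrays, 0.91 (Spearman 0.951). These arrays share 4 groups and 3 matched sets, and with group means removed the Pearson value was 0.504. Differences between the matched sets remain in all values given with group means removed. Mzb1 correlated at 0.855 with Tent5c and 0.836 with Jchain, and at 0.705 and 0.678 with group means removed. Xbp1 correlated at 0.76 with Jchain, and at 0.871 with group means removed. Ell2 ran against Xbp1 at -0.612, and at -0.719 with group means removed. The values of Prdm1 had correlations of -0.0113 to 0.394 with the other 7 genes.

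Over all tested genes, those most like Jchain across the 12 arrays were Polh, a translesion DNA polymerase gene (0.937), Pafah1b3, a subunit gene of an acetylhydrolase (0.924), and Tent5c itself. For Tent5c they were Polh (0.953), the mitotic kinase gene Plk1 (0.947) and the selenoprotein gene Selenoh (0.935). Polh and Pafah1b3 fell in LZ cells by 0.93 and 1.38 (limma adjusted p = 0.0213 for each). Plk1 (-0.61, adjusted p = 0.205) and Selenoh (-0.48, adjusted p = 0.247) did not pass. All were picked on the same arrays for likeness to genes that differ by zone, so a zone difference was in part fixed by the choice. For Mzb1 they were Dtd1 (0.89), Pafah1b3 (0.883) and the ER disulfide isomerase gene Pdia4 (0.857). For Fkbp11 they were Rita1 (0.903), Tnnt3 (0.887) and Pdia4 (0.86). For Xbp1 they were Ywhah, Ube2v1 and Rbm38 (0.91 to 0.925), for Sdc1 Rimbp2, Cebpe and P2rx5 (0.864 to 0.869), and for Ell2 Zscan29, Smad5 and Fbxo30 (0.954 to 0.956). None of these last 9 genes was called between zones (adjusted p = 0.519 to 0.999).

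Other genes of plasma cells, from a list of 28, had 18 tested members. In LZ minus DZ 0 rose, 0 fell and 18 did not pass by limma, where 0.419% of all tested genes were called. Their median was -0.17, against -0.00383 over all tested genes. Without adjustment 4 were lower and 2 higher at p under 0.05, as 7.06% of all tested genes were in either direction. Those with the smallest p were the protease inhibitor gene Slpi (-0.95 ± 0.23), Cd93 (-0.78 ± 0.20), the SLAM family receptor gene Slamf7 (-0.41 ± 0.11) and, in the opposite direction, Irf4 (0.74 ± 0.21), a transcription factor of plasma cell fate that is also induced in activated B cells. Their adjusted p was 0.16 to 0.25, and Cd93 passed with the block (0.0124), as 1.2% of all tested genes did. In high minus low affinity within the DZ, 12 of the 18 were higher and 6 lower, with a median of 0.08. Within the LZ, 3 were higher and 15 lower, with a median of -0.10. Limma called 0 of the 18 in either zone, with or without the block. An unadjusted p under 0.05 was found for 3 in the DZ and 0 in the LZ, beside 2.2% and 4.16% of all tested genes.

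XBP1 targets and genes of ER secretion, 31 tested of 36, also had 0 called members in LZ minus DZ, beside 0.419% of all tested genes. Their median was -0.08. At an unadjusted p under 0.05, 6 were lower and 2 higher, beside the 7.06% of all tested genes. Txndc11 (-0.90 ± 0.19), an ER thioredoxin gene, the cargo receptor gene Lman1 (-0.87 ± 0.19) and Pdia4 (-0.96 ± 0.22) had the smallest p, and the stress sensor gene Atf6 (0.46 ± 0.16) differed the other way. With the block, Txndc11 and Pdia4 passed, as 1.2% of all tested genes did (adjusted p = 0.0405 and 0.0478, against 0.0801 and 0.115 without it).

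In high minus low affinity within the DZ, 27 of the 31 had higher values in DZ_high, with a median of 0.30 against 0.00 over all tested genes. None passed by limma, also with the block, and 4 had an unadjusted p under 0.05, beside 2.2% of all tested genes. These 4 are named here after their values were seen: Pdia4 (1.29 ± 0.31), Creld2 (0.71 ± 0.24), Sdf2l1 (0.45 ± 0.20) and Edem2 (0.32 ± 0.14). In the LZ the same contrast had 16 of 31 members higher and a median of 0.01. The interaction was below 0 for 25 of 31 members, with a median of -0.26, 0 called by limma with or without the block, and 5 at an unadjusted p under 0.05, beside 1.58% of all tested genes.

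Genes of B cell identity that plasma cells switch off, 20 tested of 23, had a median of 0.27 in LZ minus DZ, with 13 higher and 7 lower. Only the forkhead factor gene Foxp1 passed, which fell in LZ cells by 0.58 (SE 0.11, adjusted p = 0.0453), where 0.419% of all tested genes were called. Without adjustment 7 were higher and 1 lower at p under 0.05, beside 7.06% of all tested genes. The inhibitory receptor gene Cd22 (0.51 ± 0.12) had an adjusted p of 0.16, and 0.0443 with the block. Cd40, the receptor for T cell help (0.55 ± 0.15), and Myc (0.71 ± 0.26) did not pass. At high affinity, 17 of 20 had lower values in LZ_high than in LZ_low and 15 of 20 in DZ_high than in DZ_low, with medians of -0.15 and -0.14, while 50.3% and 49.6% of all tested genes were lower. The 10 B cell and GC markers, some of them in both lists, were lower at high affinity in 10 of 10 in the LZ and 7 of 10 in the DZ, with medians of -0.15 and -0.25, and their part was not tested. Of the 20, 0 passed by limma, with or without the block. An unadjusted p under 0.05 was found for 4 in the LZ and 2 in the DZ, beside 4.16% and 2.2% of all tested genes. The smallest p was that of Ciita in the LZ (-0.68 ± 0.23) and of Foxp1 in the DZ (-0.76 ± 0.15). Bach2, a repressor of Prdm1 singled out after its values were seen, differed by -0.86 ± 0.31 in the LZ. In the DZ Bach2 differed by -0.59 ± 0.31, with an unadjusted p of 0.0789 by limma.

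Relatives of TENT5C and partners of ELL2, 12 tested of 15, had a median of -0.02 in LZ minus DZ, with 6 higher, 6 lower and 0 called. The member with the smallest p was Ell3, an elongation factor gene (0.33 ± 0.11, adjusted p = 0.448), the only one of 12 with an unadjusted p under 0.05, a share near the 7.06% of all tested genes. Tent5b, the relative of Tent5c with the smallest p, differed by 0.12 ± 0.13.

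**Figure D4:**
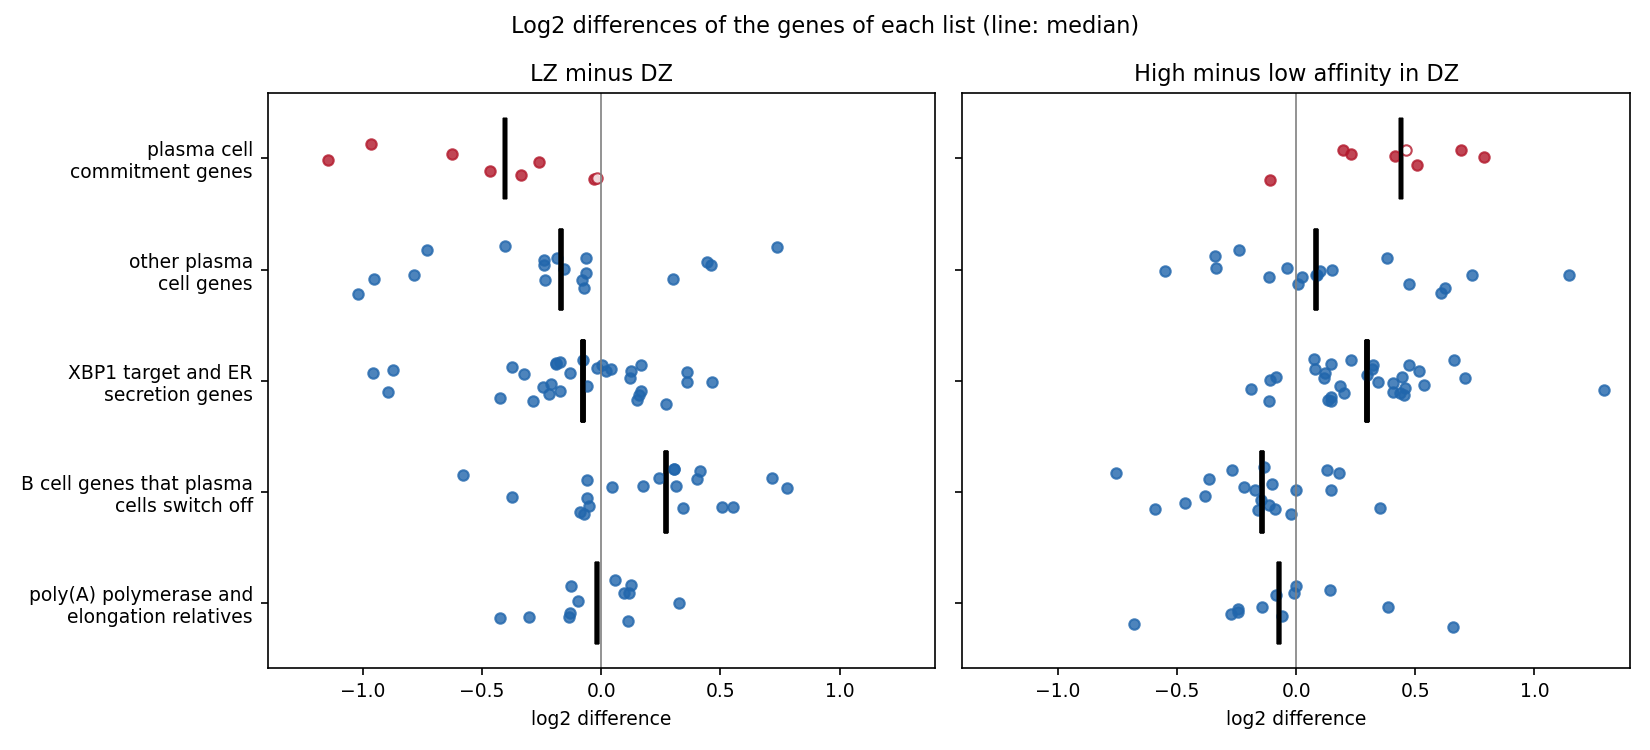
Log2 differences LZ minus DZ (left) and high minus low affinity within DZ (right) of single genes in 5 lists (points), with the list median (line); the 8 plasma cell commitment genes are red, with Prdm1 open because it was below the filter. The red points lay below 0 on the left and, except for Ell2, above 0 on the right, and 27 of 31 ER secretion genes lay above 0 on the right.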

How the data were processed

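RNA from 12 sorted cell samples was amplified to biotin-labelled cDNA and hybridized to 1-colour arrays, per the labels' protocols. The deposited values are log2 expression per probe set, made by the authors with RMA on genome build mm8, per the submitters' processing notes. The deposited values span 1.99 to 13.74, from which base 2 was inferred, and further steps are not given in the sources used here. Of 28853 probe sets 21789 had 1 gene symbol, 1621 several and 5443 none in the platform annotation. The probe set with the highest mean stood for a gene.

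Group means over all 12 arrays were fitted with limma 3.58.1 (R 4.3.3; lmFit and eBayes, two-sided), with Benjamini-Hochberg adjustment over the 11206 tested genes and a threshold of 0.05. The procedure was tested on simulated data drawn with no matched sets, so that test does not cover the differences between sets. The genes, lists and tests were chosen with earlier results of these data known. Named were the 8 genes, the members with the smallest p of each other list (up to 4), the sort genes, and the 3 most similar genes by Pearson correlation. With group means removed, 17 of 18 pairs of arrays of 1 matched set correlated above 0.1 (median 0.406, lowest -0.0712), and the shared label suffix was taken as the pairing. Alternatives were other filters, normalizations, variance models and blocks, and leaving out arrays. The number of arrays limits the precision.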

Additional observations from a re-analysis of the deposited data

How the results depend on the processing

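Besides Tent5c and Jchain, only Mzb1 and Fkbp11 were called among the 8 genes in LZ minus DZ, and only with array weights. That fit called 327 of all tested genes. DZ arrays alone had admitted Fkbp11 to the test, so its calls with array weights, also at high affinity, support nothing by themselves. The number of called genes among the 8 was 1 with no filter, 1 with centring on array medians, 4 with array weights and 0 to 2 when 1 array was left out. At high affinity it was 4 and at low affinity 2 with array weights, and 0 in all other fits. The array weights were estimated without reaching the convergence tolerance. The replicate block changed no other call among the 8 genes than those given beside the results. It and the fit that combined the block with leaving out set 3, added after seeing the data, left 2 called. In the other 4 contrasts 0 were called in all fits.

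Over all genes, the count in LZ minus DZ was 47, and 28 with centring, 80 with quantile normalization, 110 with a random and 135 with a fixed block, 85 and 86 (blocked) without set 3, 327 with array weights and 12 to 67 without 1 array. At high affinity the count of 4 was 9 with the block, 12 with a random block, 146 with array weights, 0 in the groups compared alone and 2 to 5 without 1 array. At low affinity the count of 4 was 25 with the block, 18 with a random block, 7 with quantile normalization, 40 with array weights, 0 in the groups compared alone and 0 to 5 without 1 array. For high minus low affinity, the count of 0 was 103 with array weights in LZ and 52 in the mean of the zones, where a random block and quantile normalization gave 1 each, and 1 in DZ without DZ_low replicate 1.

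Of 1141 values of single genes under the alternatives, 47 changed sign, none of them in a comparison where that gene was called in the reported fit, and the cause was not tested. Ell2 in LZ minus DZ was 0.064 with array weights and 0.15 without set 3 (also blocked), and -0.11 to 0.082 without 1 array; at high affinity it was 0.023 and 0.12 in those fits and -0.22 to 0.16, and at low affinity -0.10 to 0.15, without 1 array. In high minus low affinity in LZ, Xbp1 was -0.31 with array weights, -0.00093 with centring, -0.11 without set 3 (also blocked) and -0.30 to 0.28 without 1 array. Fkbp11 there was -0.0061 with quantile normalization, -0.0030 with centring, -0.086 with array weights, -0.22 without set 3 (also blocked) and -0.14 to 0.16 without 1 array. Sdc1 was -0.081 without set 3 (also blocked) and -0.042 to 0.16 without 1 array, and Ell2 -0.33 to 0.049. In the mean over zones, Mzb1 was -0.0084 with quantile normalization, -0.10 with array weights, -0.046 without set 3 (also blocked) and -0.072 to 0.14 without 1 array, and Xbp1 -0.13 with array weights. Without 1 array, the LZ minus DZ value at low affinity was -0.34 to 0.028 for Xbp1 and -0.31 to 0.045 for Fkbp11, and the interaction -0.33 to 0.11 for Jchain, -0.22 to 0.16 for Ell2 and -0.24 to 0.052 for Sdc1.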
